A study of Homo sapiens with 4 samples.

Results

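The regions described here are those that the authors' annotation assigns to a gene whose name starts with MIR, in 4 deposited tables of enhancer regions. They were chosen by that name alone, and number 3048 of 45672 regions, with 771 different microRNA gene names. The tables come from Kasumi-1, an established human acute myeloid leukaemia line carrying the t(8;21) fusion of RUNX1 and RUNX1T1. The groups are sgNT, a non-targeting guide with genotype given as WT (2 samples), and sgSETD8, a CRISPR/Cas9 guide against SETD8 with genotype given as SETD8 knockout (2 samples). No label gives a time after editing, a clone or a knockout check, and the treatment text of all samples names the SETD8 knockout. SETD8, gene symbol KMT5A, is the enzyme that monomethylates histone H4 at lysine 20. The mark profiled by CUT&Tag was acetylation of histone H3 at lysine 27 (H3K27ac), found at active enhancers and promoters, whereas the series text names H3K27me1.

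MicroRNA genes make short RNAs of about the length of the sequences printed below. The transcript is cut to a hairpin by DROSHA with DGCR8, the hairpin is cut by DICER1, and the mature strand guides an Argonaute protein to messenger RNAs that match its seed, bases 2 to 8. Many microRNA genes lie in introns of coding genes, and others have their own long host transcript, named with the ending HG. In myeloid cells, miR-223 marks granulocytic differentiation, miR-221 and miR-222 lower KIT, and miR-142 is made in nearly all blood cells.

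Each table belongs to 1 group, and the tables form pairs by how their regions are named: a sparse pair and a dense pair. The sparse table read as sgNT names no guide at all, so its group is inferred from lacking the SETD8 guide. Each value below comes from 1 table unless a mean is given, so only the mean over pairs has a replicate error, and no p-value is given because 2 tables against 2 cannot go below 0.333 in an exact two-sided permutation test. Whether the samples of a group are separate cultures is not stated. A peak-based table cannot check the loss of SETD8. Of 13 names listed as defining the line, 12 had a region in some table, and the other name, CD13, is an alias of ANPEP. ANPEP (dense sgSETD8) and CD33 (both sgSETD8 tables) had none in an sgNT table. Of 9 genes of other cell types, 3 had a region: CD3E in both dense tables, KRT18 and MYOD1 in the sparse sgSETD8 table.

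The mature sequences of microRNAs whose loci carry the results are shown here, from RefSeq on GRCh38.p14, 5′ to 3′ with the seed in capitals. Of the 771 names, 670 had a mature sequence in that table. The first set holds microRNAs that share a seed with another of the set.
miR-221-3p: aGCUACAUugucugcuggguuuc
miR-222-3p: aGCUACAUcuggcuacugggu
let-7a-5p: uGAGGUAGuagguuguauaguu
let-7i-5p: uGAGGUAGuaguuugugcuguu
miR-29b-3p: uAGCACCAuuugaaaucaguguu
miR-29c-3p: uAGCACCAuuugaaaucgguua
miR-181a-5p: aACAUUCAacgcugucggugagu
miR-181b-5p: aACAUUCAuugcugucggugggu

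The second set holds microRNAs with a seed of their own among those printed, at loci described below.
miR-21-5p: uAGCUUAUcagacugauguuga
miR-223-3p: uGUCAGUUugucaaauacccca
miR-146a-5p: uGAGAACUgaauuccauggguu
miR-155-5p: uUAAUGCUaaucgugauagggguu
miR-193a-3p: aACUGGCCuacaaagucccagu
miR-23a-3p: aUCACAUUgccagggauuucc
miR-27a-3p: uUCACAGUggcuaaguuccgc
miR-24-3p: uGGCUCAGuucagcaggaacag
miR-326: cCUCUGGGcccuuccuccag

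MicroRNA-gene regions were more numerous with sgSETD8 in both pairs, much as regions of all genes were. The sparse sgNT table held 294 such regions, 5.67% of its 5186 regions (95% Clopper-Pearson interval 5.06 to 6.33), and the sparse sgSETD8 list held 458, 6.29% of 7276 (5.75 to 6.88). The dense sgNT table held 1069, 7.06% of 15149 (6.65 to 7.48), and the dense sgSETD8 list 1227, 6.79% of 18061 (6.43 to 7.17). Within each pair the intervals of the share overlapped. The ratio of sgSETD8 to sgNT was 1.56 in the sparse pair and 1.15 in the dense pair, against 1.40 and 1.19 for all regions. On the log2 scale the mean ratio was 0.42 ± 0.31 (SD, n = 2 pairs), against 0.37 for all regions. The mean number per table was 681.5 ± 548 (SD, n = 2) with sgNT and 842.5 ± 544 with sgSETD8, so the groups overlapped and the spread between pairs exceeded the difference. The intervals count regions only, the tables hold no read counts, and sequencing depth is unknown.

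The direction depended on which regions were counted. In the best-ranked 5000 of each dense table the log2 ratio was -0.12, and among sparse regions at least 500 bp wide it was -0.70. The best-ranked 5000 hold equally many regions in each table, so that ratio compares shares. At 500 bp the ratio over all regions was not computed, so nothing particular to microRNA genes is read from it. The median width of microRNA-gene regions was 572 bp in the sparse sgNT table and 350 bp in the sparse sgSETD8 table. Over all regions it was 512 bp and 341 bp. The microRNA-gene regions covered 0.569 Mb and 0.442 Mb. Dense regions covered 8.14 Mb with sgNT and 9.04 Mb with sgSETD8, and their constituent peaks numbered 2586 and 2796.

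Most microRNA-gene regions were intronic. By the authors' annotation the intronic share was 64.6% (58.9 to 70.1) in sparse sgNT, 52.8% (48.2 to 57.5) in sparse sgSETD8, 73.5% (70.8 to 76.2) in dense sgNT and 72.9% (70.4 to 75.4) in dense sgSETD8. Over all regions it was 56.1%, 47.3%, 68.3% and 67.5% in the same order, below the interval in all 4 tables. Regions annotated to a promoter numbered 1, 0, 9 and 11, at most 0.896% of a table's microRNA-gene regions, and promoters were as rare over all regions (0.463%, 0.124%, 1.06% and 1.18%). The median distance to the assigned start site was 23.2 kb, 38.2 kb, 22.4 kb and 26.7 kb, so assignment to a microRNA gene often spans a long stretch. The share farther than 50 kb was higher with sgSETD8 than with sgNT in both pairs: 39.5% against 27.6% in the sparse pair and 30.6% against 25.3% in the dense pair. All regions had the same order, 38.0% against 26.5% and 26.4% against 22.5%. The centre of a region lay in a repeat in 27.6% of sparse sgNT and 45.0% of sparse sgSETD8 microRNA-gene regions, against 30.2% and 51.3% of all regions. The part of repeats in the sparse difference was not tested.

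The regions seldom covered the hairpin of the gene they were assigned to. Where the RefSeq table gives that hairpin a position, 2 of 232 sparse sgNT, 0 of 340 sparse sgSETD8, 71 of 792 dense sgNT and 70 of 926 dense sgSETD8 regions did so. Of 1562 hairpins with a position in the RefSeq table, 98 lay wholly inside a region of the dense sgNT table and 98 inside one of the dense sgSETD8 table, under any assigned name. The number shared was 64, of which 48 lay in the span of a coding gene, and 34 were inside a region in each group alone. Sparse regions covered 3 hairpins with sgNT and 0 with sgSETD8.

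**Figure D1:**
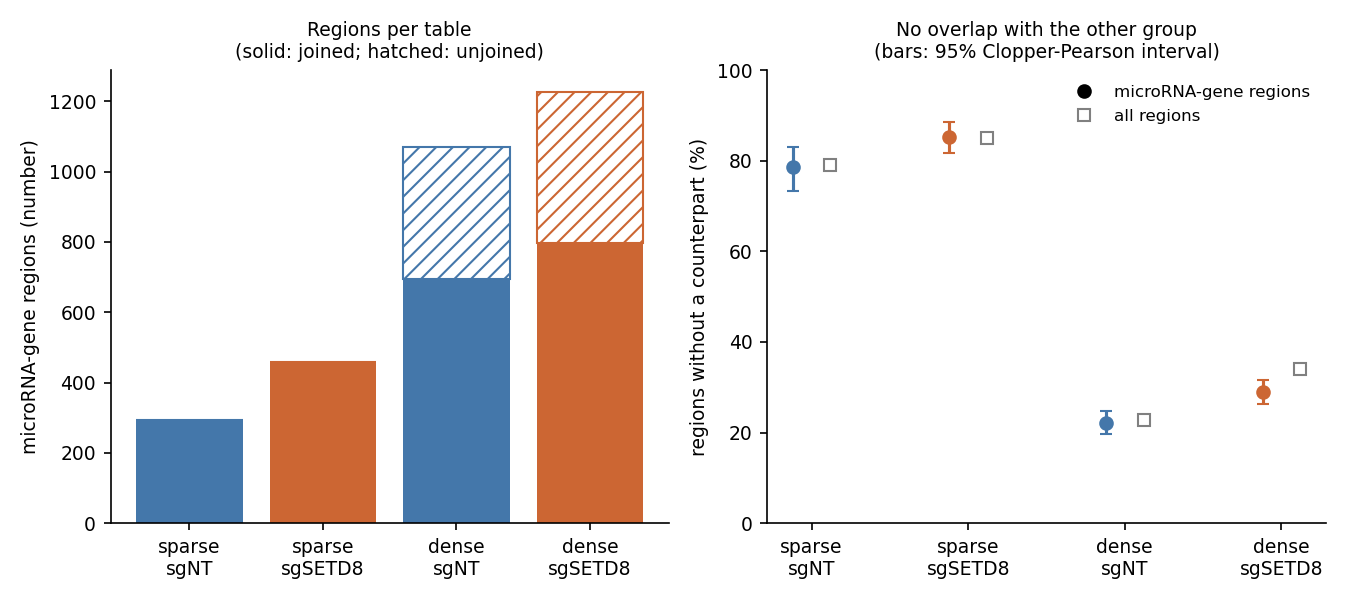
Left, number of microRNA-gene regions in each of the 4 tables, solid for regions joined from peaks under a stitched name and hatched for unjoined regions; right, percentage without an overlapping region in the other group of the same pair, with filled circles for microRNA-gene regions, open squares for all regions and 95% Clopper-Pearson bars. The dense sgSETD8 circle (28.9%) lies below its square (34.0%), and the other 3 squares lie inside the intervals of their circles.

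Whether a microRNA-gene region had a counterpart in the other group differed more between the pairs than between the guides. In the sparse pair, 231 sgNT regions (78.6%, 73.4 to 83.1) and 391 sgSETD8 regions (85.4%, 81.8 to 88.5) overlapped no region of the other table. The background over all regions was 79.1% and 85.1%, close to the microRNA-gene shares. Of the dense regions, 236 with sgNT (22.1%, 19.6 to 24.7) had no counterpart, against a background of 22.7%. For dense sgSETD8 the number was 355 (28.9%, 26.4 to 31.6), below the background of 34.0%. The dense sgSETD8 gap moved with unjoined regions, single peaks listed without joining to their neighbours. Of dense microRNA-gene regions 35.0% were unjoined in both groups, against 13.5% and 14.3% of all regions. Among joined regions alone the share without a counterpart with sgSETD8 was 36.5% for microRNA genes and 36.5% for all.

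The best-ranked regions without a counterpart ranked higher in the sparse pair than in the dense pair. Ranks order the regions of 1 table by the authors' signal, with rank 1 the highest. In these lists the coding gene given is where the region lies, and need not be the host of the microRNA. In the sparse sgNT table they were MIR4505 in the chromatin gene MIDEAS (rank 42), MIR223 (rank 60), MIR4263 in BABAM2 (rank 105), MIR326 in ARRB1 (rank 130) and MIR3188 near LSM4 (rank 156). In the sparse sgSETD8 table they were MIR200CHG (rank 128), MIR153-2 in PTPRN2 (rank 247), MIR7160 in MYOM2 (rank 431), MIR3675 in NBPF1 (rank 453) and MIR3201 (rank 516). The MIR200CHG region, named for the host of an epithelial microRNA, lay in an intron of PTPN6, which encodes the blood-cell phosphatase SHP-1.

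In the dense tables the regions without a counterpart ranked lower. With sgNT the leaders were MIR6786 in HGS (rank 2059), MIR1226 in MAP4 (rank 3518), MIR5572 in ARNT2 (rank 3941), MIR301A in SKA2 (rank 4202) and MIR3936HG in SLC22A5 (rank 4626). With sgSETD8 they were MIR4799 in ARHGAP10 (rank 2614), MIR620 in MED13L (rank 3069), MIR3686 in CCDC26 (rank 3787), MIR4644 in FAM120B (rank 4604) and MIR3146 at POLR1F (rank 4640). The MIR3146 region was centred 22 bp from the microRNA's start and covered its hairpin.

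Of the microRNA gene names, 90 had a region in all 4 tables (11.7%, background over all gene names 12.1%), and for 34 of these some base was covered in all 4. Shared bases were not counted over all gene names. The 34 include MIR222, MIR21, MIR29B2CHG, MIR199A1, MIR340, MIR151A, MIRLET7A1, MIR1284, MIR3922 and MIR7852. MIR223 and MIR145 had a region in every table without a shared base.

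MIR221 and MIR222, 2 microRNAs with 1 seed, lie next to each other between coding genes on the X chromosome. The MIR222 hairpin is at chrX:45747015-45747124 on the minus strand of hg38, and the nearest coding gene is DIPK2B, over 500 kb away. Each table had 1 region assigned to MIR222. It spanned chrX:45743151-45772110 in sparse sgNT (rank 10, 5 peaks) and chrX:45758367-45767643 in sparse sgSETD8 (rank 40, 3 peaks). The dense regions were chrX:45742702-45810258 (rank 233, 13 peaks) and chrX:45742659-45812008 (rank 209, 16 peaks). All 4 share a stretch upstream of the hairpins, and the sparse sgSETD8 region alone does not reach them. The sparse sgSETD8 table instead held a 0.597 kb region under the name MIR221 (rank 1578). Signal per bp in the dense pair was 0.874 with sgNT and 0.740 with sgSETD8, a log2 difference of 0.02 after subtracting the median over all matched regions.

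MIR223, on the X chromosome, has its hairpin at chrX:66018870-66018979. The main dense region was chrX:65985785-66031378 with sgNT (rank 358, 12 peaks) and chrX:65985543-66031347 with sgSETD8 (rank 374, 10 peaks). Their centred log2 difference was -0.07. Among sparse regions, 1 of 16.2 kb with sgNT (rank 60, 3 peaks) faced 3 regions with sgSETD8 of 0.924 kb together, the best at rank 984. None of the sparse sgSETD8 regions overlapped the sgNT region. The dense regions covered the hairpin and the sparse sgNT stretch in both groups, so the sparse difference in extent was not seen there.

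MIR21, within the coding gene VMP1 on chromosome 17, is among the most abundant microRNAs of cancer cells. Its hairpin is at chr17:59841266-59841337. The sparse tables held 3 regions with sgNT (18.5 kb, best rank 34) and 2 with sgSETD8 (9.95 kb, best rank 165). The dense tables held 2 regions each, 61.6 kb with 13 peaks in sgNT and 57.3 kb with 14 peaks in sgSETD8. The hairpin was covered in both dense tables, by chr17:59825981-59849659 with sgNT (rank 1151) and chr17:59802183-59846561 with sgSETD8 (rank 1127). The breaks between regions moved, so that the gap lay in different places.

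MIR146A, a feedback regulator of NF-kB signalling, lies downstream of MIR3142 and its host MIR3142HG on chromosome 5. With dense sgNT, 2 unjoined regions covered the host promoter and body, chr5:160463627-160471040 under MIR3142HG (rank 1448) and chr5:160471631-160483313 under MIR3142 (rank 998). With dense sgSETD8 a single region, chr5:160463525-160490578 under MIR3142 (rank 299), covered both stretches and reached over the MIR146A hairpin at chr5:160485352-160485450. The signal per bp of the MIR3142 region was 1.91 with sgNT and 1.52 with sgSETD8. The name MIR146A itself had 5 regions in each dense table, 4.83 kb and 4.89 kb, all beyond the hairpin. Its sparse regions numbered 0 with sgNT and 1 with sgSETD8 (rank 772), centred 19.4 kb from its start.

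MIR155HG, the host transcript of miR-155, had 1 dense region in each group and none in the sparse tables. It was 8.70 kb long with sgNT (rank 1907, 1.45 per bp) and 8.05 kb with sgSETD8 (rank 2233, 1.17 per bp). The centred log2 difference was -0.04. MIR29B2CHG, the host of miR-29b and miR-29c near CD34, had 12 regions over 32.6 kb with dense sgNT and 8 over 36.3 kb with dense sgSETD8, all unjoined. Its sparse tables held 1 region of 8.14 kb with sgNT and 2 of 0.766 kb together with sgSETD8.

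The MIR142 hairpin, at chr17:58331232-58331318, was covered in both dense tables under different names. The region was assigned to TSPOAP1-AS1 with sgNT (rank 334) and to MIR4736 with sgSETD8 (rank 617, chr17:58327332-58340532). By name alone MIR4736 would count as gained, while the stretch was acetylated in both. The hairpins of MIR23A, MIR27A and MIR24-2, a myeloid cluster on chromosome 19, lay in chr19:13834213-13843928 with dense sgNT (rank 663, 3.07 per bp). No dense sgSETD8 region covered them whole, though sgSETD8 regions under other names overlapped 61.2% of that stretch.

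**Figure D2:**
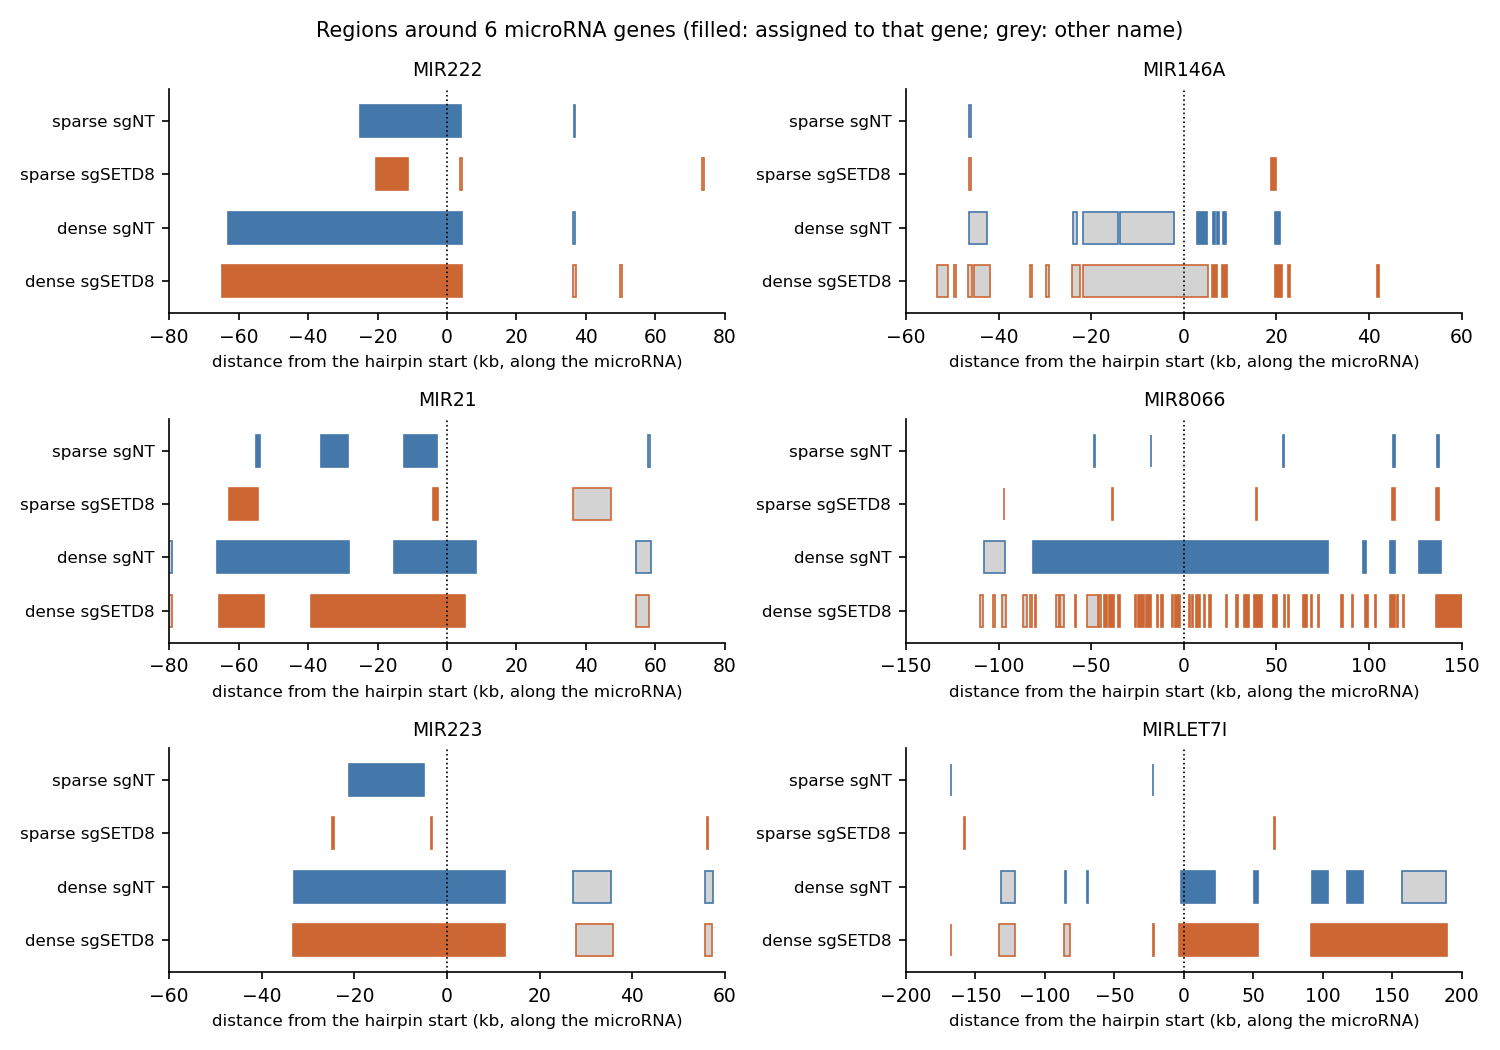
Regions of the 4 tables around 6 microRNA genes, drawn as boxes against the distance in kb from the start of the hairpin (dotted line) in the direction of the microRNA; filled boxes carry that gene's name and grey boxes another. The dense boxes at MIR222 and MIR223 end within a few kb of each other in both groups, and the box over MIR146A carries another name. MIR8066 has 6 regions with dense sgNT and 39 with dense sgSETD8 in all, some of them outside the 150 kb drawn on each side.

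MIR181A2 and MIR181B2, whose host lies within NR6A1 on chromosome 9, exchanged names in the same way. The MIR181A2 hairpin was inside a 38.0 kb region named MIR181A2 with dense sgNT (rank 1694) and inside a 78.5 kb region named MIR181B2 with dense sgSETD8 (rank 782). The longer region ran on past the shorter by joining 12 peaks where the sgNT region joined 7.

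Among microRNA genes tied to t(8;21), 4 of 10 listed had a region. MIR193A, a locus described as silenced by the fusion protein, lies beside MIR365B on chromosome 17. With dense sgNT, chr17:31538237-31566692 (rank 2249, 4 peaks) covered the MIR193A hairpin at chr17:31559996-31560083. With dense sgSETD8 the name MIR193A had a 0.623 kb region (rank 14360) upstream. A neighbouring sgSETD8 region named MIR365B, chr17:31562628-31599074 (rank 1390, 8 peaks), began just past the MIR193A hairpin and covered that of MIR365B. With dense sgNT the name MIR365B had 2 regions, of 19.3 kb together, and neither covered the MIR365B hairpin. The better-ranked was chr17:31580583-31599439 (rank 1913). Sparse tables had no MIR193A region. MIR9-2 had 1 region in sparse sgNT and MIR9-3HG 2 in sparse sgSETD8, with none in a dense table.

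In the haematopoietic list, 21 of 54 names had a region. Of these, 14 had a dense region in both groups, 3 with sgNT alone (MIR181A2, MIR23A and MIR29B1) and 1 with sgSETD8 alone (MIR4736), where over all dense gene names 11.4% had one with sgNT alone and 20.5% with sgSETD8 alone. In sparse data 4 had one in both, 5 with sgSETD8 alone and 2 with sgNT alone, against 45.9% and 28.8% over all sparse gene names. More regions with sgSETD8 were counted for 4 dense names, fewer for 4 and equal numbers for 10. Of all dense gene names 37.3% had more and 21.2% fewer, and so short a list cannot be set apart from that. The list's dense regions numbered 38 with sgNT and 35 with sgSETD8.

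The let-7 genes, a family of tumour-suppressor microRNAs with 1 seed, had regions for 7 of 15 names. Dense regions were in both groups for 3, with sgNT alone for MIRLET7A3 and MIRLET7B and with sgSETD8 alone for MIRLET7D and MIRLET7F2. With 7 names these counts cannot be set apart from the 11.4% and 20.5% over all dense gene names. MIRLET7I on chromosome 12 had 4 dense regions over 50.3 kb with sgNT (13 peaks, best rank 1260) and 2 over 155 kb with sgSETD8 (34 peaks, best rank 149). The longer of these, chr12:62695127-62792843, lay in introns of PPM1H, a phosphatase gene, with its centre 140 kb from the assigned start. It ran from 91.4 to 189 kb past the hairpin start. Within that stretch dense sgNT had MIRLET7I regions at 91.9 to 104 kb and 118 to 129 kb. A further sgNT region there, at 157 to 189 kb, was named PPM1H. The lengths and ranks given for MIRLET7I therefore compare stretches named and joined differently. Regions covered the hairpin itself in both groups. MIRLET7A1 had 1 dense region of 17.9 kb with sgNT and 3 unjoined ones of 4.49 kb together with sgSETD8.

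The cluster host MIR17HG, a proliferation-linked gene, had 2 dense regions with sgNT and 3 with sgSETD8, none of them at its promoter: the nearest centre was 2.90 kb upstream. MIR92A1 had 2 dense regions with sgSETD8 alone (0.947 kb). Only 2 of the 16 listed names of these clusters had a region. Of 8 HOX-cluster names, MIR196B alone had one, with dense sgNT (1.16 kb, rank 8700), and it was wholly covered by an sgSETD8 region under another name. Of 13 p53-linked names, 4 had a region. MIR34A had 1 region of 0.413 kb in sparse sgSETD8 and 1 of 0.529 kb in dense sgNT at almost the same place, so that the pairs put it in opposite groups. Of 8 names linked to mitochondria none had a region, and of 40 from other tissues MIR133A1HG alone did, in both dense tables.

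The proteins that make and use microRNAs had regions for 19 of 32 genes. By assigned name, in the dense pair 13 had one in both groups, 4 with sgSETD8 alone (CNOT1, DGCR8, DIS3L2 and HNRNPA1) and 1 with sgNT alone (KHSRP), beside 20.5% and 11.4% over all dense gene names. Names can mislead here: MIR3618, with a region in both dense groups, lies in DGCR8. A dense sgSETD8 region named MIR3940 (0.787 kb) overlapped KHSRP. DROSHA, the nuclear hairpin-cutting enzyme, had 7.10 kb in 2 dense regions with sgNT (rank 4917) and 36.8 kb in 4 with sgSETD8 (rank 894), and 1 sparse region with sgSETD8. AGO2, the slicing Argonaute, had 109 kb with dense sgNT (rank 42) and 106 kb with sgSETD8 (rank 32). TNRC6B, a partner of the Argonautes in silencing, had 152 kb and 142 kb. DICER1 had a single region under its own name, of 0.519 kb in sparse sgSETD8. Dense regions named MIR3173 overlapped DICER1 in both groups, 12.3 kb with sgNT and 11.7 kb with sgSETD8. More regions with sgSETD8 were counted for 7 genes, fewer for 3 and equal numbers for 8, where 37.3% of all dense gene names had more and 21.2% fewer.

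Among sparse regions the best-ranked with sgNT were MIR222 (rank 10), MIR21 (rank 34), MIR4505 (rank 42), MIR466 between coding genes (rank 58) and MIR223 (rank 60). With sgSETD8 they were MIR1343 in PDHX (rank 7), MIR222 (rank 40), MIR1284 in FOXP1 (rank 47), MIR3667 (rank 50) and MIR3922 in CHST11 (rank 73). MIR222 alone was in both sets of 5.

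The highest-ranked dense regions were long stretches inside coding genes. MIR3922, in the sulfotransferase gene CHST11 on chromosome 12, was the best-ranked microRNA gene of both tables: chr12:104456432-104743355 with sgNT (rank 7, 79 peaks) and chr12:104431612-104753219 with sgSETD8 (rank 6, 71 peaks). MIR1284, in the transcription factor gene FOXP1 on chromosome 3, had chr3:71487064-71588824 with sgNT (rank 55, 27 peaks) and chr3:71354508-71592539 with sgSETD8 (rank 10, 54 peaks). Its best sparse rank was 342 with sgNT and 47 with sgSETD8. These ranks come from lists of different lengths and from regions joined over different spans, so no change is read from them.

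MIR326, in ARRB1 on chromosome 11, had chr11:75264147-75353234 with dense sgNT (rank 40) and chr11:75263720-75353200 with sgSETD8 (rank 52), a centred log2 difference of -0.20 in signal per bp. Its sparse region, chr11:75328625-75341121, was present with sgNT alone. MIR640, in the repressor-complex gene GATAD2A, ranked 66 and 57 in the dense pair with a centred difference of 0.05. MIR4714, in the receptor gene IGF1R, ranked 33 with sgNT and 58 with sgSETD8. MIR1260B, in the Notch co-activator gene MAML2, had 3 dense regions with sgNT, of 149 kb together with 28 peaks. The best of them, of 73.1 kb, ranked 452. With sgSETD8 it had 1 region of 188 kb with 40 peaks (rank 50), so the ranks compare differently joined regions.

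Name changes touched the top of the list as well. The dense sgNT region chr6:156770995-157022239, over the chromatin-remodelling gene ARID1B, was assigned to MIR4466 and ranked 11. The MIR4466 hairpin lay in a dense sgSETD8 region of rank 7 that was assigned to ARID1B itself.

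Counts of genes with a region in 1 group alone followed the background. In the sparse pair 207 of the microRNA genes (47.5%) had a region with sgSETD8 alone, against a background of 45.9% of gene names, and 116 (26.6%) with sgNT alone, against 28.8%. In the dense pair the numbers were 139 (22.6%, background 20.5%) and 74 (12.01%, background 11.4%), with 403 in both. Of the dense genes, 27 of the 139 and 23 of the 74 overlapped a region of the other group under another name, a count not made over all gene names. Genes found in 1 dense group alone were low in the ranking: their median best rank was 13535 with sgSETD8 and 10726.5 with sgNT, against 5474 and 4672 for shared genes.

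Both sgSETD8 tables and no sgNT table named 21 microRNA genes (2.72%, background 2.85%), and the reverse held for 4 (0.519%, background 0.858%). The 21 were MIR346 in GRID1, MIR378E in DOCK2, MIR592 in GRM8, MIR597 in TNKS, MIR1252 in SYT1, MIR4480 and MIR548Q in CAMK1D, MIR4656 in RADIL, MIR5002 in KALRN, MIR5707 in NCAPG2, MIR6075 in LPCAT1, MIR6861 in HECTD4, MIR7848 in TG, MIR8053 in CORIN, MIR8055 in MCPH1, MIR12131 in MTHFD1L, and MIR4278, MIR4318, MIR4431, MIR4643 and MIR4675 between coding genes. The 4 were MIR635 in WIPI1, MIR6842 in PTK2B, MIR4771-1 and MIR6731. The 2 tables' regions overlapped for 2 of the 21, MIR378E and MIR6075, and for 2 of the 4, MIR4771-1 and MIR6731. Genes split the opposite way between the pairs numbered 16 (sparse sgNT with dense sgSETD8, 2.08%, background 1.59%) and 11 (1.43%, background 1.28%), with overlapping positions for 12 and 2. These overlaps of position were not counted over all gene names, so nothing particular to microRNA genes is read from them.

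MIR378E lies in DOCK2, a gene for migration of blood cells. Its regions were chr5:170055909-170056182 in sparse sgSETD8 (rank 7202) and chr5:170043340-170056834 in dense sgSETD8 (rank 6322), and neither overlapped an sgNT region of its pair. MIR6075 lies in the lipid-remodelling gene LPCAT1. Its dense sgSETD8 region, chr5:1507587-1519293 (rank 2573, 3 peaks), covered the hairpin, and an sgNT region under another name overlapped 4.29% of it. By position, 10 dense sgSETD8 microRNA-gene regions overlapped a sparse sgSETD8 region and no sgNT region of either pair (0.815%, background over all dense sgSETD8 regions 0.781%). The reverse held for 8 dense sgNT regions (0.748%, background 0.944%). The 10 carried the names MIR620, MIR3686, MIR579, MIR378E, MIR548AR, MIR3667, MIR3194, MIR223, MIR1343 and MIR548AB, and the best of them ranked 3069. The 8 carried MIR4279, MIR548A2, MIR7160, MIR6859-1, MIR6731, MIR885, MIR586 and MIR938, and the best ranked 7008 (MIR4279).

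The numbers of regions per gene moved with joining. Among dense regions, 16 genes with sgNT and 17 with sgSETD8 had 10 or more, and these held 28.1% and 27.6% of all microRNA-gene regions. MIR8066, in the calcineurin gene PPP3CA on chromosome 4, had 6 dense regions with sgNT and 39 with sgSETD8. Under that name peaks numbered 48 and 40 and the covered length was 195 kb and 61.0 kb, so both went the other way from the regions. Covered length includes the gaps inside a joined region, so it moves with joining too. The sgNT regions included a joined one of 37 peaks, chr4:101163045-101322032 (rank 160), where sgSETD8 listed single peaks. Some of those single peaks were named MIR1255A, so the counts under MIR8066 moved with naming as well. MIR1255A had 0 dense regions with sgNT and 9 with sgSETD8, of 9 peaks and 15.9 kb together. In the sparse pair MIR8066 had 5 regions with sgNT and 6 with sgSETD8.

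MIR4774, in the ceramide synthase gene CERS6, went from 2 regions with sgNT to 28 with sgSETD8, with 14 and 28 peaks and 75.0 kb and 45.6 kb. MIR4687, in the calcium-sensor gene STIM1, had 1 and 21 regions, 26 and 21 peaks. MIR26A1, in CTDSPL, had 0 and 12 dense regions, yet 11 of the 12 lay wholly under sgNT regions of other names. The reverse was seen at MIR548A2, beside AHI1 and MYB on chromosome 6, with 27 regions with sgNT and 1 with sgSETD8. There the single sgSETD8 region, chr6:135229518-135326499 (rank 122), joined 21 peaks. MIR5584 in RNF220 (25 and 2), MIR1296 in JMJD1C (13 and 1) and MIR6124 in MICAL2 (12 and 2) also had fewer.

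In genes wholly or mostly unjoined in both groups, regions and peaks are nearly the same thing. MIR7852, in the guanine-exchange factor gene VAV3 on chromosome 1, had 46 regions with sgNT and 43 with sgSETD8 (70.3 kb and 73.6 kb). MIR4266, in SH3RF3, had 36 and 32, MIR548T in GALNT7 22 and 19, MIR548Z in RASSF3 14 and 16, MIR3195 in TAF4 13 and 12, and MIR548AC in CD58 10 and 11. In these the groups differed by a few regions in either direction. Over all 616 microRNA genes of the dense pair, 220 had more regions with sgSETD8 (35.7%, background over all gene names 37.3%), 142 fewer (23.1%, background 21.2%) and 254 as many. By peaks 289 had more (46.9%, background 49.1%) and 197 fewer (32.0%, background 30.3%). By covered length 372 had more (60.4%, background 62.1%) and 244 less (39.6%, background 37.8%).

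**Figure D3:**
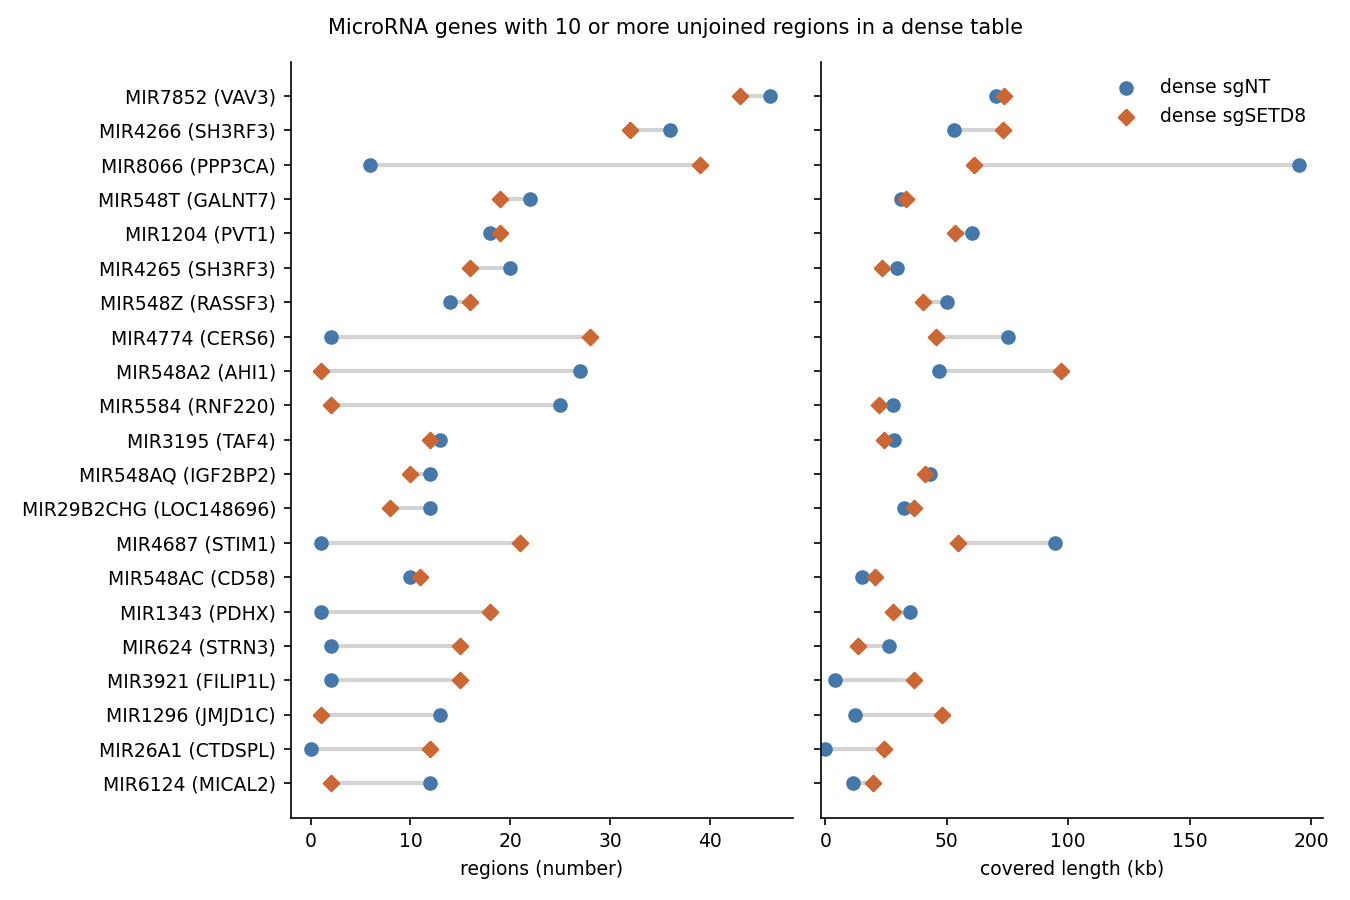
Number of regions (left) and covered length in kb (right) for the 21 microRNA genes with 10 or more unjoined regions in a dense table, with the coding or host transcript in brackets; circles are dense sgNT and diamonds dense sgSETD8. MIR8066 goes from 6 to 39 regions while its length, which includes the gaps inside joined regions, goes from 195 kb to 61.0 kb. Genes wholly or mostly unjoined in both groups differ by a few regions. Their lengths can differ more, as at MIR4266 (53.1 kb with sgNT and 73.1 kb with sgSETD8).

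Where regions of the dense pair covered each other by at least 90%, signal per bp could be set side by side. This held for 134 microRNA-gene regions of 98 genes, among 1769 matched regions of all genes. The median log2 ratio over all matched regions was -0.26, in an unstated scale, and was subtracted. After that the microRNA-gene regions had a median of -0.04 with an SD of 0.22, against an SD of 0.24 over all. Differences of 1.5 fold or more were seen in 2 regions with higher values in sgSETD8 (1.49%, background 1.41%) and in 1 with a lower value (0.746%, background 1.02%). In the sparse pair none of the 44 matched regions was assigned to a microRNA gene; of those 44, 25.0% were past 1.5 fold higher and 29.5% past it lower.

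The highest centred differences were at MIR3686 (0.91), MIR3713 (0.60), 1 region of MIR7852 (0.47), MIR12114 (0.35) and MIR3692 (0.33). The other matched regions of MIR7852 were all negative, from -0.13 to -0.01. For MIR3713 the signal per bp was 0.783 with sgNT and 0.987 with sgSETD8, in a region of 2675 bp with sgSETD8 on chromosome 15. The lowest centred differences were at 2 regions each of MIR3195 (-0.77 and -0.47) and MIR4434 (-0.56 and -0.45), and at MIR4522 (-0.52). For MIR3195, in the TFIID gene TAF4, the lower region was chr20:62059690-62062170 with sgNT, with 1.20 per bp, against 0.586 with sgSETD8. Regions of 1 gene share a locus and are not separate replicates.

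**Figure D4:**
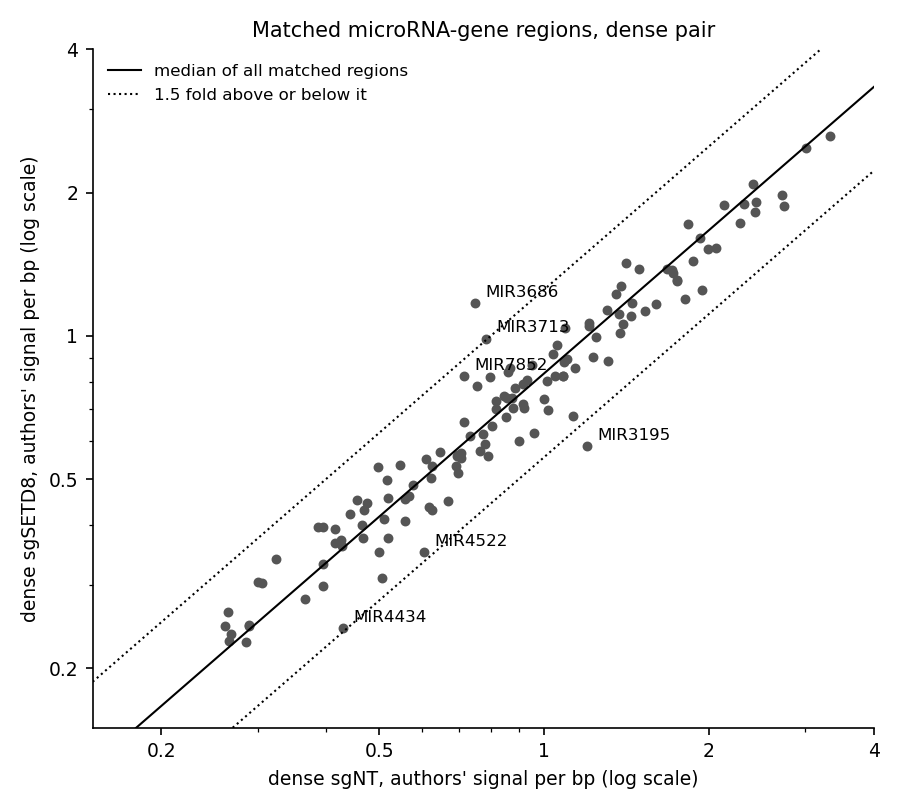
Authors' signal per bp of the 134 matched microRNA-gene regions of the dense pair, sgNT on the horizontal and sgSETD8 on the vertical axis, both on log scales; the solid line is the median ratio of all matched regions and the dotted lines lie 1.5 fold from it. The points follow the solid line, and MIR3686, MIR3713 and 1 region of MIR3195 lie outside the dotted lines.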

How the data were processed

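H3K27ac CUT&Tag of Kasumi-1 cells gave 4 deposited tables of enhancer regions, 2 per group. The submitters' processing notes name cutadapt, Bowtie2 and the build hg38, without versions or settings. How peaks were called, joined and annotated is not given in the sources used here. Each region's deposited value is the authors' signal: in 100% of rows it equals a density of at most 4 decimals times the region's length. Its scale is not stated, the depth per sample is unknown, and columns without a group numbered 0. Tables could be tied to a group but not to 1 of its samples.

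Rows on chromosomes 1 to 22, X and Y whose gene name starts with MIR were taken. A counterpart overlaps by at least 1 bp. Matched regions cover each other by at least 90%, and their log2 ratios of signal per bp were centred on all matched regions. Hairpins and coding genes come from RefSeq tables of GRCh38.p14. Intervals are exact Clopper-Pearson at 95%. The overlap code was tested on simulated data. Computation used scipy 1.17.1, pandas 2.3.3, numpy 2.4.6 and matplotlib 3.10.9 under Python 3.11.15.

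The members and the 11 gene lists were chosen with earlier results of these data known. Named genes are those of the 10 best-ranked regions of a table, the 5 best-ranked without a counterpart, genes in all 4 tables, in both tables of 1 group alone, or with 4 or more regions in a table, list members, and the 5 highest and 5 lowest matched differences. Not all are printed. MIR142, MIR579, MIR885 and other names given for a hairpin or for position were chosen after their values were seen. Alternatives were other distances, widths, overlaps, ranks and joining rules. Those on joined regions, on merging for counterparts, on peaks and on position in place of names were chosen after seeing the data.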

Additional observations from a re-analysis of the deposited data

How the results depend on the processing

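Of the alternative values computed, 45 stayed near the reported one (within 1 SD or the 95% interval, or within 1.5 times for counts of genes), 27 moved and 3 reversed. The log2 ratio of region numbers in the sparse pair was 0.64, and became 0.26 in the best-ranked 5000 regions and -0.70 at a width of at least 500 bp. In the dense pair it was 0.20 and became -0.12 in the best-ranked 5000. The mean of both pairs was 0.42, and became 0.067 in the best-ranked 5000 and -0.22 at 500 bp. With a single pair it ranged from 0.20 to 0.64. Ratios over all regions were not computed at these rank and width settings. At least 50% cover raised the share without a counterpart to 89.5% (sparse sgNT), 88.9% (sparse sgSETD8), 33.0% (dense sgNT) and 42.7% (dense sgSETD8), against 88.5%, 88.8%, 35.1% and 51.3% over all regions. A width of at least 500 bp gave 66.3%, 62.5%, 14.3% and 20.2% in that order, against 67.3%, 61.8%, 14.4% and 24.6%. The best-ranked 5000 gave 80.5% for sparse sgSETD8, 1.57% for dense sgNT and 2.74% for dense sgSETD8, against 79.0%, 2.38% and 3.64%. A gap of up to 1000 bp gave 19.3% for dense sgNT, against 20.8%. For dense sgSETD8, joined regions alone gave 36.5% and merging a gene's neighbours gave 34.9%. Genes with sgSETD8 alone numbered 58 in the sparse pair at 500 bp and 50 in the dense pair in the best-ranked 5000. Genes in both sgSETD8 tables alone were 21, and became 12 within 50000 bp of the start, 8 in the best-ranked 5000, 5 at 500 bp and 139 to 207 with a single pair. Those in both sgNT tables alone were 4, and became 9 in the best-ranked 5000 and 74 to 116 with a single pair. The median density difference was -0.30 without centring. Fewer regions or tables enter each narrower setting; otherwise the cause was not tested. No paired analysis was possible because the labels give the samples no replicate numbers and no result comes from a test; the tables were set side by side within pairs that share a naming scheme, as ratios alone.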
